A study of Homo sapiens with 18 samples.

Results

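The CXC and CC chemokines examined here are 10 genes (CXCL1, CXCL2, CXCL3, CXCL5, CXCL6, CXCL8, CXCL10, CXCL16, CCL2 and CCL20), chosen by gene symbol, which 11 of the 21111 probes of the TempO-Seq panel read. They were chosen with earlier results of these data known, and the study names CXCL1, CXCL2 and CXCL8 among its ASAP1-regulated genes. Counts of members called beside the share of all probes are therefore descriptive. CXCL2 has 2 probes (CXCL2_28232 and CXCL2_1672) and every other gene has 1, and the CXCL2 values below are those of CXCL2_28232 unless stated. TempO-Seq counts ligated pairs of detector oligos that annealed side by side on an mRNA, so each probe reports a short stretch of its transcript. The study silenced ASAP1, which encodes an Arf GTPase-activating protein, in the human triple-negative breast cancer (TNBC) cell lines BT549, Hs578T and SUM149PT, which it describes as carrying amplified ASAP1. Cells were transfected at 50 nM with a pool of siRNAs against ASAP1 (siASAP1) or with a control (siCtrl) and were lysed after 72 h, with 3 replicates for each cell line and treatment, 18 libraries in all. The methods of the study describe siCtrl as a pool of many siRNAs against kinases, and elsewhere the study calls it non-targeting. They state that the pool does not significantly change the expression of any single kinase gene. Which kinases the pool holds is not given in the sources used here. No untransfected cells and no rescue of ASAP1 are among these libraries, so each value compares siASAP1 with siCtrl in transfected cells of 1 line. Depth ran from 4.63 M to 12.5 M reads per library with a median of 6.63 M, and 3 reads corresponded to between 1.73 and 4.80 normalized counts.

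Chemokines are small secreted proteins that guide leukocytes along gradients by engaging G protein-coupled receptors. The CXC members CXCL1, CXCL2, CXCL3, CXCL5, CXCL6 and CXCL8 act on CXCR2, CXCL6 and CXCL8 also on CXCR1, and they chiefly attract neutrophils. CXCL10 is an interferon-induced ligand of CXCR3, CXCL16 is a membrane-anchored ligand of CXCR6, CCL2 draws monocytes through CCR2, and CCL20 acts through CCR6. Many of these genes are induced through NF-kB by interleukin-1 or TNF, and tumor cells of the breast can secrete several of them.

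The CXC members CXCL1, CXCL2, CXCL3, CXCL5, CXCL6 and CXCL8 lie together on chromosome 4, within 358.8 kb between the start of CXCL8 and the end of CXCL2 (chr4:73740506-74099293, GENCODE annotation of GRCh38). The genome build behind the probes is not given in the sources used here. That interval holds 9 coding genes, the other 3 being PF4V1, PF4 and PPBP. CXCL10 is also on chromosome 4 but outside it (chr4:76021117-76023497), CXCL16 and CCL2 are on chromosome 17, and CCL20 is on chromosome 2. RefSeq promoter windows of 250 bases before to 50 bases after the start site (GRCh38.p14) were found for 8 of the 10 genes; CCL2 and CXCL16 were not among them. The letters GGNNNTTCC, a core of the NF-kB site searched on both strands, occurred in 8 of these 8 windows and in 20.1% of the 35116 promoter windows in the table. The AP-1 letters TGANTCA occurred in 1 of the 8 (CXCL8) against 7.71% of all windows. The interferon-stimulated response element occurred in 1 (CXCL10) against 3.57%. TATAAA occurred in 2 (CXCL8 and CCL20) against 11.5%. A match to these letters describes the sequence and does not show that a factor was bound there.

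The stretch from 120 to 11 bases before the start site is shown for the probes' genes in the chromosome 4 group and for CCL20, because the NF-kB core of each lies in it. Sequences are from RefSeq (GRCh38.p14), 5′ to 3′ on the strand of the gene, and capitals mark each NF-kB core on either strand, of which the form found in CXCL8 matches on both.
CXCL1 (chr4:73869273-73869382, plus strand): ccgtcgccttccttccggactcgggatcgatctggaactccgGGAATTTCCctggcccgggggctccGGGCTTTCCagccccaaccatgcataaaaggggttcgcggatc
CXCL2 (chr4:74099206-74099315, minus strand): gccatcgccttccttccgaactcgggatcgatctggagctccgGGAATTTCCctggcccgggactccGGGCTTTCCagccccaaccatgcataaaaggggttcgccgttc
CXCL3 (chr4:74038700-74038809, minus strand): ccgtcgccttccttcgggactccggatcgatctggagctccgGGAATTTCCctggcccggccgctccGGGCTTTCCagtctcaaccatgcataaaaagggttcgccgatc
CXCL5 (chr4:73998688-73998797, minus strand): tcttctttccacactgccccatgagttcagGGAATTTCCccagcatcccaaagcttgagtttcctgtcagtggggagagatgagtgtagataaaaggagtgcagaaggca
CXCL6 (chr4:73836558-73836667, plus strand): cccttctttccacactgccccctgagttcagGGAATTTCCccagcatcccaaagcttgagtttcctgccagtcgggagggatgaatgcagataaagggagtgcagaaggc
CXCL8 (chr4:73740449-73740558, plus strand): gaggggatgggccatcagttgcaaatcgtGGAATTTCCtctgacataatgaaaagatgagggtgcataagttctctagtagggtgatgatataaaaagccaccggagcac
CCL20 (chr2:227813722-227813831, plus strand): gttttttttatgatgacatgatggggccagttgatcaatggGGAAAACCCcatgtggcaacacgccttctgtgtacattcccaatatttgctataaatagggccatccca

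CXCL1, CXCL2 and CXCL3 each carried 2 cores, and CXCL5, CXCL6, CXCL8 and CCL20 carried 1 in this stretch. Aligned over this stretch, CXCL1 and CXCL2 were 92.8% identical, CXCL1 and CXCL3 91.8%, CXCL2 and CXCL3 89.2%, and CXCL5 and CXCL6 91.0%. The similarity extends to the transcripts, where 60 windows of 50 bases were shared by CXCL1 and CXCL2 (5.73% of the windows of CXCL1 and 5.13% of those of CXCL2). CXCL2 and CXCL3 shared 54 (4.62% of the windows of CXCL2 and 5.26% of those of CXCL3), and CXCL1 and CXCL3 shared 6. The probe sequences were not used here, so the share of CXCL1 and CXCL2 reads that a near-identical copy could have given is uncertain.

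**Figure D1:**
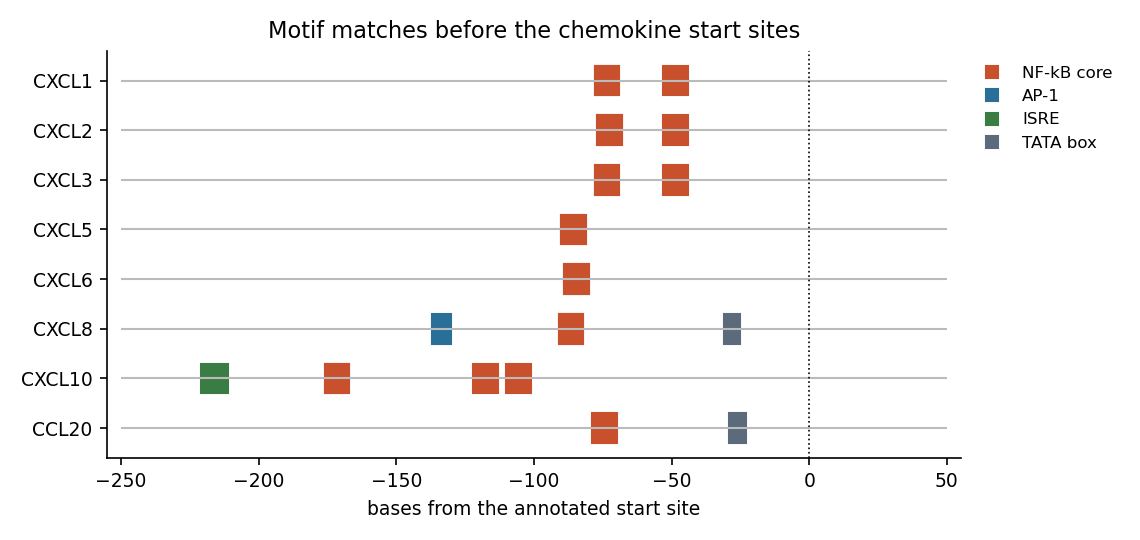
Positions of motif matches (coloured blocks) in the promoter windows of 8 chemokine genes (rows), in bases from the annotated start site (dotted line). Every row holds at least 1 NF-kB core before the start site, and AP-1 and interferon-response matches occur in CXCL8 and CXCL10 alone among these rows.

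ASAP1 itself was read in every library. In BT549 it held 1107, 966 and 944 normalized counts in siCtrl replicates 1, 2 and 3 and 367, 729.7 and 783 in siASAP1 (Log2 FC −0.75, SE 0.39). In Hs578T it held 1641, 1414 and 2697 in siCtrl and 782, 825 and 1261 in siASAP1 (Log2 FC −0.98, SE 0.32). The treatments did not overlap in these lines. In SUM149PT the siCtrl replicates held 1087, 189 and 1314 and the siASAP1 replicates 282, 468 and 184 (Log2 FC −1.16, SE 0.77). The library labelled SUM149PT siCtrl replicate 2 therefore had ASAP1 at the level of the silenced libraries. SUM149PT siASAP1 replicate 2 held the most ASAP1 of its group, and it also stood apart in the correlations between libraries given at the end. By the DEG limits of the study (unadjusted p under 0.05 and absolute Log2 FC over 1), applied here to limma, ASAP1 was called in none of the 3 lines. The study used these limits with a DESeq2 Wald test, and it also reports reduced ASAP1 mRNA in these lines by RT-qPCR. In a fit of all 18 libraries that allowed for the cell line the Log2 FC of ASAP1 was −0.96 (limma adjusted p = 0.13). Without the SUM149PT siCtrl library with low ASAP1 it met the limits in that line (−2.04, SE 0.46) and passed over the other libraries (−1.20, limma adjusted p = 0.019). Leaving out SUM149PT siCtrl replicate 3 gave −0.64 and leaving out BT549 siASAP1 replicate 1 gave −0.41. In Hs578T ASAP1 met the limits without siCtrl replicate 1 or 2 or siASAP1 replicate 3 (−1.06, −1.17 and −1.20). The library labelled SUM149PT siCtrl replicate 2 was also the deepest of that line, at 7.74 M reads against 4.63 M and 4.89 M for the other siCtrl libraries, and many SUM149PT values below are also given without it. Without it 14.4% of 9953 probes met the limits for upregulation in SUM149PT used below and 8.94% those for downregulation, shares to set beside every SUM149PT count given without it.

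Few of the chemokines were read above the filter, a mean of 10 normalized counts over the 6 libraries of a cell line. In each of the 3 lines 4 of the 11 probes passed and 7 did not. CXCL1, CXCL8 and CXCL2_28232 passed in all 3 lines, CXCL5 in BT549 alone, CCL2 in Hs578T alone and CCL20 in SUM149PT alone. The other 5 probes passed in no line, and no library held more than 2 reads for CXCL3, 4 for CXCL2_1672, 6 for CXCL10, 7 for CXCL16 or 10 for CXCL6. For these 5 the reads were too few to test a difference between treatments. CXCL2_1672 was among them although CXCL2_28232 read the same gene above the filter in all 3 lines. Few reads of a probe therefore do not show that the mRNA was absent.

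In siCtrl the lines differed in which chemokine they carried. For CXCL8, the ligand of CXCR1 and CXCR2, the siCtrl replicates 1 to 3 held 5297, 10129 and 4769 normalized counts in Hs578T, 489, 167 and 156 in BT549, and 270, 97.5 and 232 in SUM149PT. Hs578T stood above BT549 by 4.76 on the log2 scale (95% CI 3.51 to 6.01, limma adjusted p = 0.00032), and the neighbours BT549 and SUM149PT overlapped (SUM149PT minus BT549 −0.35, 95% CI −1.60 to 0.90). For CXCL1 the order was SUM149PT (4006, 2142 and 3569), BT549 (1662, 956 and 993) and Hs578T (158, 818 and 145). These ranges did not overlap, yet between the neighbours SUM149PT and BT549 the difference of 1.43 had a limma adjusted p of 0.16, while Hs578T minus BT549 was −2.13 (adjusted p = 0.049). CXCL2 overlapped between Hs578T (253, 1002 and 416) and each of the other lines (262, 206 and 203 in BT549, 446, 319 and 427 in SUM149PT), with a limma adjusted p of 0.22 over the 3 lines. CXCL5 (adjusted p = 8.0e-05) and CCL2 (adjusted p = 0.0011) also differed between lines, but each passed the filter only through the line in which it is high and so had to differ. Over all probes 27.0% differed between lines in siCtrl. Without the library labelled SUM149PT siCtrl replicate 2 that share was 45.1%, and SUM149PT minus BT549 was 0.10 for CXCL8 (95% CI −1.08 to 1.27) and 1.70 for CXCL1 (limma adjusted p = 0.080). Without Hs578T siCtrl replicate 2, CCL2 fell under the filter and was not tested.

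**Figure D2:**
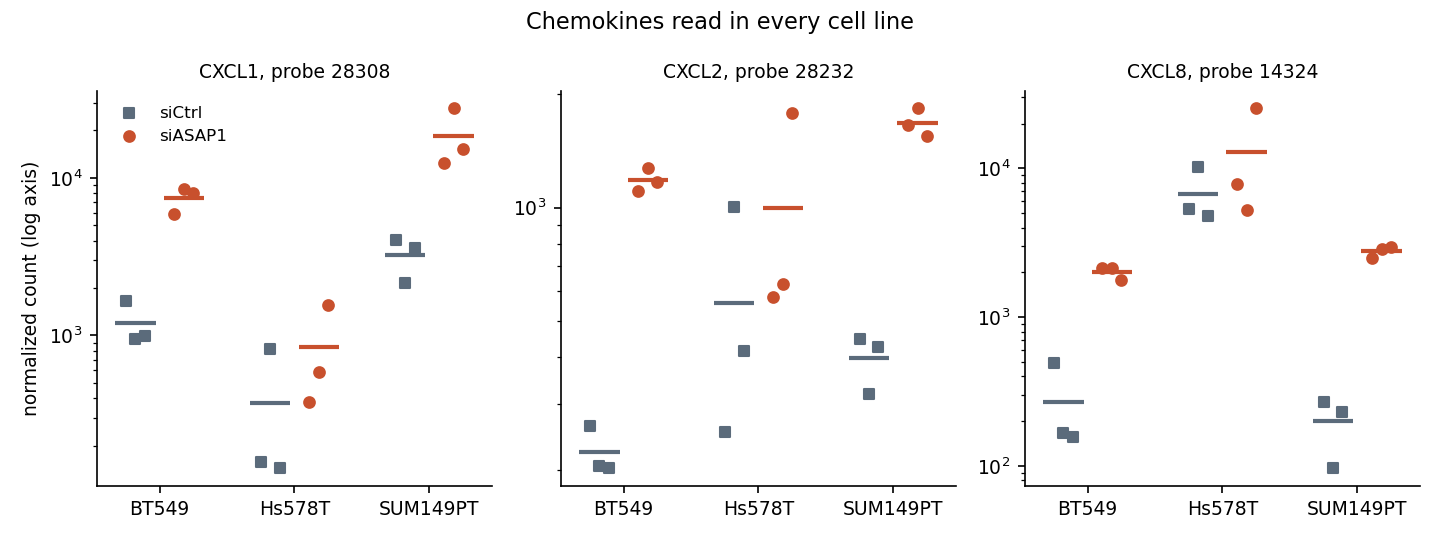
Normalized counts (log axis, a separate scale in each panel) of CXCL1, CXCL2 and CXCL8 by cell line, where each point is 1 library and each horizontal bar the mean of 3. The siASAP1 libraries lie above every siCtrl library in BT549 and SUM149PT, and the treatments overlap in Hs578T.

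The central comparison asked whether silencing ASAP1 moved these ligands. CXCL1, CXCL2 and CXCL8, all of them neutrophil-attracting CXC ligands, were higher after siASAP1 in BT549 and SUM149PT, by 4.24 to 13.8 times as ratios of means. With all 18 libraries and the cell line as a covariate, the Log2 FC was 2.17 for CXCL1 (limma adjusted p = 0.0034), 1.79 for CXCL2 (0.0035) and 2.56 for CXCL8 (0.0047). These 3 members were called upregulated over 18 libraries, where 0.678% of 10475 probes were upregulated and 1.06% downregulated, and with voom weights CXCL5 was called as well (adjusted p = 0.018). With a block for the replicate number CXCL8 was not called. CCL20, CXCL5 and CCL2 had Log2 FC of 1.33, 0.66 and 0.05 in the limma fit of all 18 libraries (adjusted p = 0.15, 0.52 and 0.97), which includes lines in which each was near 0. Without the library labelled SUM149PT siCtrl replicate 2 CXCL1, CXCL2 and CXCL8 had 2.08, 1.73 and 2.34, all called, where 0.577% of 10396 probes were upregulated.

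In BT549, CXCL1 went from 1662, 956 and 993 normalized counts in siCtrl to 5909, 8453 and 8043 in siASAP1. CXCL2 went from 262, 206 and 203 to 1105, 1274 and 1170. The lowest siASAP1 library exceeded the highest siCtrl library for both genes, with Log2 FC of 2.66 (SE 0.35, limma adjusted p = 0.054) and 2.41 (SE 0.35, adjusted p = 0.054). CXCL8 held 489, 167 and 156 in siCtrl and 2146, 2131 and 1786 in siASAP1 (Log2 FC 3.10, SE 0.47, adjusted p = 0.064), and its highest siCtrl library, replicate 1, was also the highest for CXCL1 and CXCL2. CXCL5, a further CXCR2 ligand, held 111, 66.7 and 75.1 in siCtrl and 251, 554 and 731 in siASAP1 (Log2 FC 2.49, SE 0.49, adjusted p = 0.20), again without overlap. By the DEG limits, 4 of the 4 tested members were upregulated in BT549, where 3.28% of 9666 probes were upregulated. By adjusted p under 0.05 no member passed, nor did any probe in any of the 3 lines with all libraries in the fit.

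In SUM149PT, CXCL1 rose from 4006, 2142 and 3569 normalized counts to 12385, 27573 and 15204 (Log2 FC 2.47, SE 0.44, limma adjusted p = 0.26). CXCL2 rose from 446, 319 and 427 to 1660, 1836 and 1552 (2.09, SE 0.36, adjusted p = 0.26). CXCL8 rose from 270, 97.5 and 232 to 2481, 2864 and 2942 (3.91, SE 0.47, adjusted p = 0.067), the largest ratio of means among the members tested, 13.8. No siASAP1 library of this line fell to the level of a siCtrl library for any of these 3 genes. The library labelled SUM149PT siCtrl replicate 2 was the lowest of the siCtrl group for all 3, and without it the Log2 FC were 2.19, 1.94 and 3.45, with limma adjusted p of 0.049, 0.049 and 0.029 in a fit where 107 probes passed 0.05. CCL20, the ligand of CCR6, held 11.4, 19.1 and 6.4 in siCtrl and 45.0, 32.0 and 89.4 in siASAP1 (2.07, SE 0.78, adjusted p = 0.45), and 2.43 without that library. These CCL20 values rest on few reads, 8, 21 and 4 in siCtrl and 34, 25 and 68 in siASAP1. All 4 tested members were thus upregulated by the DEG limits, where 5.27% of 10078 probes were upregulated and 4.29% downregulated. The count was again 4 without the library labelled siCtrl replicate 2, where the background was 14.4%. Without siASAP1 replicate 2, which also stood apart from its group, it was 4 as well. There 522 of 10018 probes were upregulated and 621 downregulated. No fit left out both libraries. CCL20 fell short of the limits when any of 4 single libraries was left out, with Log2 FC of 1.67 to 2.15 (siASAP1 replicates 1 and 3, siCtrl replicates 1 and 3).

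**Figure D3:**
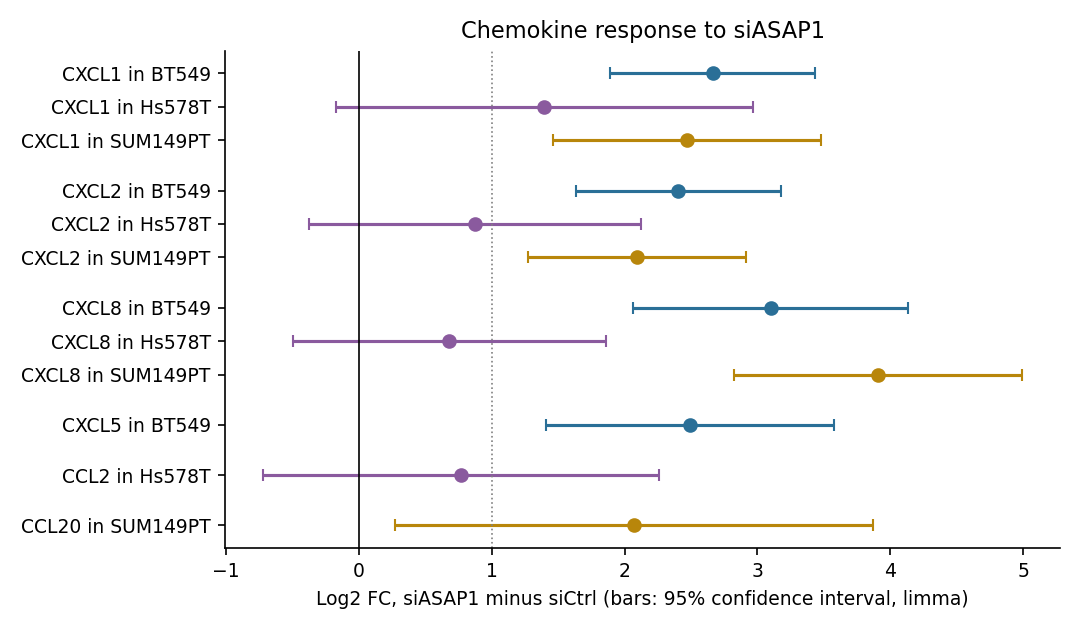
Log2 FC of siASAP1 against siCtrl (x axis) with 95% confidence intervals for each chemokine and cell line that passed the filter, with lines at 0 (solid) and 1 (dotted). The BT549 and SUM149PT intervals lie above 0 and the Hs578T intervals include it.

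In Hs578T no tested member met the DEG limits, where 1.34% of 9500 probes were upregulated and 1.44% downregulated. CXCL1 held 158, 818 and 145 normalized counts in siCtrl and 376, 582 and 1561 in siASAP1 (Log2 FC 1.39, 95% CI −0.18 to 2.97, limma adjusted p = 0.92). It met the limits with a block for the replicate number and in a single fit of all 18 libraries, both described at the end. CXCL2 held 253, 1002 and 416 against 580, 627 and 1789 (0.87, 95% CI −0.38 to 2.13, adjusted p = 0.92). CXCL8 held 5297, 10129 and 4769 against 7896, 5258 and 25238 (0.68, 95% CI −0.50 to 1.86, adjusted p = 0.92). The treatments overlapped for all 3 genes. In each, siCtrl replicate 2 was the highest control and siASAP1 replicate 3, which also had the most ASAP1 of the siASAP1 libraries of this line, the highest silenced library. Without siCtrl replicate 2, CXCL1 and CXCL2 met the limits (Log2 FC 2.20 and 1.42), where 2.09% of 9488 probes were upregulated. Without siASAP1 replicate 1 CXCL1 did (1.84), where 0.747% of 9508 were. Without siASAP1 replicate 3 the Log2 FC of CXCL1, CXCL2 and CXCL8 were 0.81, 0.35 and 0.02. The CXCL8 value was larger without siASAP1 replicate 2 and the CXCL2 value smaller without siCtrl replicate 1, with no member called in either refit. CCL2, the monocyte attractant, held 45.6, 98.7 and 16.7 in siCtrl and 38.5, 102 and 99.2 in siASAP1 (0.77, 95% CI −0.72 to 2.26), and its siCtrl replicate 2 was likewise the highest control. The CCL2 value was 1.37 without that library, 0.12 without siCtrl replicate 3 and 1.22 without siASAP1 replicate 1, and it was called in none of these.

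An exact permutation test of the 3 libraries against 3 cannot go below 0.1, which each non-overlapping comparison in BT549 and SUM149PT reached (two-sided). In Hs578T the exact p was 0.3 for CXCL1, 0.4 for CXCL2, 0.5 for CCL2 and 0.6 for CXCL8. Every siASAP1 library lay above every siCtrl library for 4 of 4 members in SUM149PT (8.87% of all tested probes), 4 of 4 in BT549 (7.35%) and 0 of 4 in Hs578T (6.31%). In these bulk lysates, more cells expressing a chemokine and more RNA per cell cannot be told apart.

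**Figure D4:**
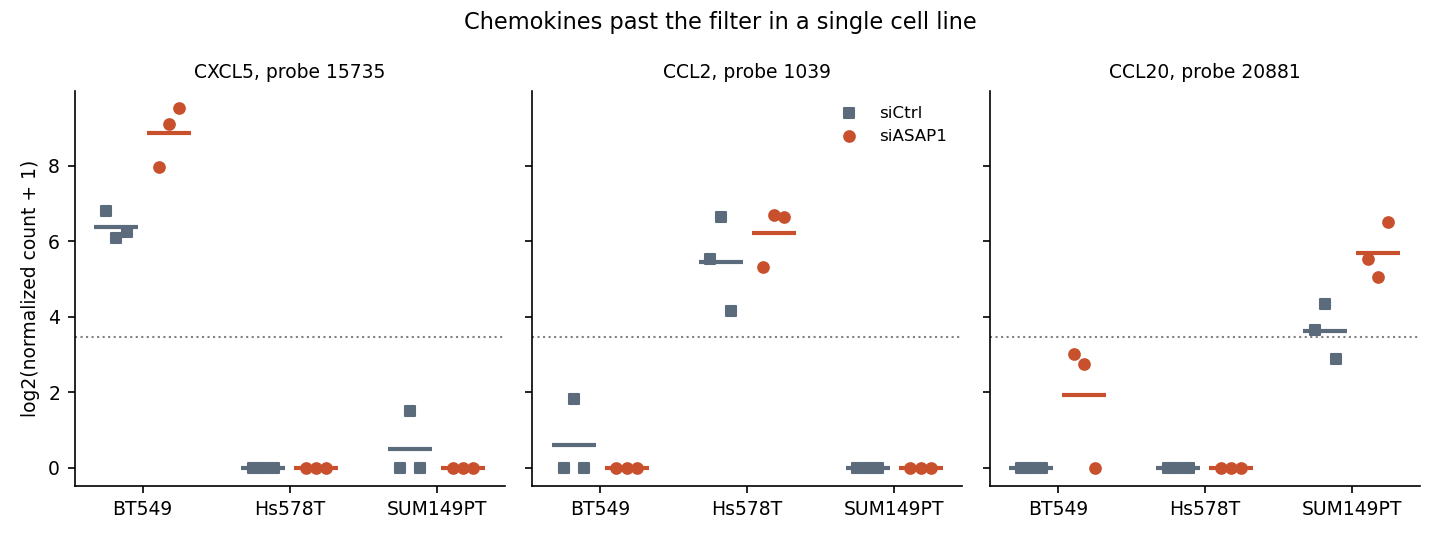
CXCL5, CCL2 and CCL20 as log2(normalized count + 1) by cell line, where each point is 1 library, each horizontal bar the mean of the 3 log2 values and the dotted line a normalized count of 10. The bars lie above the dotted line in a single cell line for each gene, BT549 for CXCL5, Hs578T for CCL2 and SUM149PT for CCL20.

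The members confined to a line by the filter were close to 0 elsewhere. CXCL5 had no read in any Hs578T library and 1.82 normalized counts in the library labelled SUM149PT siCtrl replicate 2 alone among SUM149PT libraries. CCL2 had no read in SUM149PT and 2.52 normalized counts in BT549 siCtrl replicate 2 alone among BT549 libraries. CCL20 had no read in Hs578T and in BT549 siCtrl, and 7.11, 5.66 and 0 normalized counts in the BT549 siASAP1 replicates.

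The response was compared between lines by an interaction of cell line and treatment, for which 0.00955% of 10475 probes passed. No member did by limma, with or without voom weights, and CXCL8 was under 0.05 before adjustment. CXCL5 was as well, but it passed the filter only through BT549 and was at or near 0 in the other lines, so its response had to differ. For CXCL8 the response in SUM149PT exceeded that in Hs578T by 3.23 (95% CI 1.60 to 4.86, limma adjusted p = 0.23), and the Hs578T response minus that of BT549 was −2.42 (95% CI −4.05 to −0.79, adjusted p = 1). For CXCL1 the SUM149PT response minus that of Hs578T was 1.08 (95% CI −0.70 to 2.85), and for CXCL2 it was 1.22 (95% CI −0.12 to 2.56). Without the library labelled SUM149PT siCtrl replicate 2 again no member passed, where 0.250% of 10396 probes did, and the CXCL8 difference between SUM149PT and Hs578T was 2.78 (95% CI 1.20 to 4.36, limma adjusted p = 0.18). The lower Hs578T values were therefore not shown to differ from the other lines at the adjusted threshold.

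CXCL1, CXCL2 and CXCL8 moved together from library to library. After each line's mean was subtracted, and over 18 libraries that share the treatment difference, Pearson's r was 0.97 between CXCL1 and CXCL2, 0.94 between CXCL2 and CXCL8 and 0.91 between CXCL1 and CXCL8. Among 10475 probes the profiles nearest to the mean of the 3 were those of IRAK2, a kinase of interleukin-1 and Toll-like receptor signaling (r = 0.93), NUAK2, an AMPK-related kinase (0.91), TNIP3 (0.90), the autophagy kinase ULK1 (0.87) and ERAP1, an aminopeptidase that trims peptides for MHC class I (0.87). IRAK2 went from a mean of 45.8 ± 27.6 normalized counts (SD, n = 3) to 251 ± 32.2 in SUM149PT, where its Log2 FC without the library labelled siCtrl replicate 2 was 2.46 (SE 0.57). It went from 196 ± 15.8 to 744 ± 82.4 in BT549, and the Hs578T means were 277 ± 66.4 and 532 ± 259.9. IRAK2, NUAK2 and ULK1 are kinase genes and siCtrl is a pool against kinases. Whether that pool lowered them in siCtrl was not tested.

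On chromosome 4 the neighbours of these genes were read unevenly. Within the interval PF4 and PPBP, which encode platelet chemokines, had no read in any library, PF4V1 did not exceed 20.7 normalized counts, and CXCL3 and CXCL6 stayed under the filter beside CXCL1, CXCL2, CXCL5 and CXCL8. Outside it, the flanking genes AFP, MTHFD2L, EPGN and EREG passed the filter in at least 1 line and were not called in any. The Log2 FC of MTHFD2L was 3.25 in SUM149PT, −1.32 in BT549 and −0.14 in Hs578T. The EGF-family ligand genes EPGN and EREG had 0.39 and 0.62 in SUM149PT, the line in which they passed.

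Among 33 other chemokine ligand genes, no probe passed the filter in BT549 or SUM149PT and 2 did in Hs578T, with none called. One was CCL26, a ligand of CCR3, at 38.0, 20.4 and 13.8 normalized counts in the Hs578T siCtrl replicates and 51.0, 50.9 and 46.9 in siASAP1. These CCL26 groups did not overlap, and the Log2 FC was 1.13 (SE 0.52, limma adjusted p = 0.92). The other was CCL28, a ligand of CCR3 and CCR10, at 213, 259 and 150 normalized counts in the Hs578T siCtrl replicates and 85.0, 206 and 40.5 in siASAP1 (Log2 FC −1.17, SE 0.55). Of 23 chemokine receptor genes a single one was tested, ACKR3, an atypical receptor that binds CXCL12, and this in BT549 alone. ACKR3 fell from 404, 406 and 393 to 227, 171 and 140 there (Log2 FC −1.19, SE 0.38, limma adjusted p = 0.54), where 3.69% of probes were downregulated. CXCR1 and CXCR2, the receptors of the responding ligands, were therefore below the filter in every line.

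**Figure D5:**
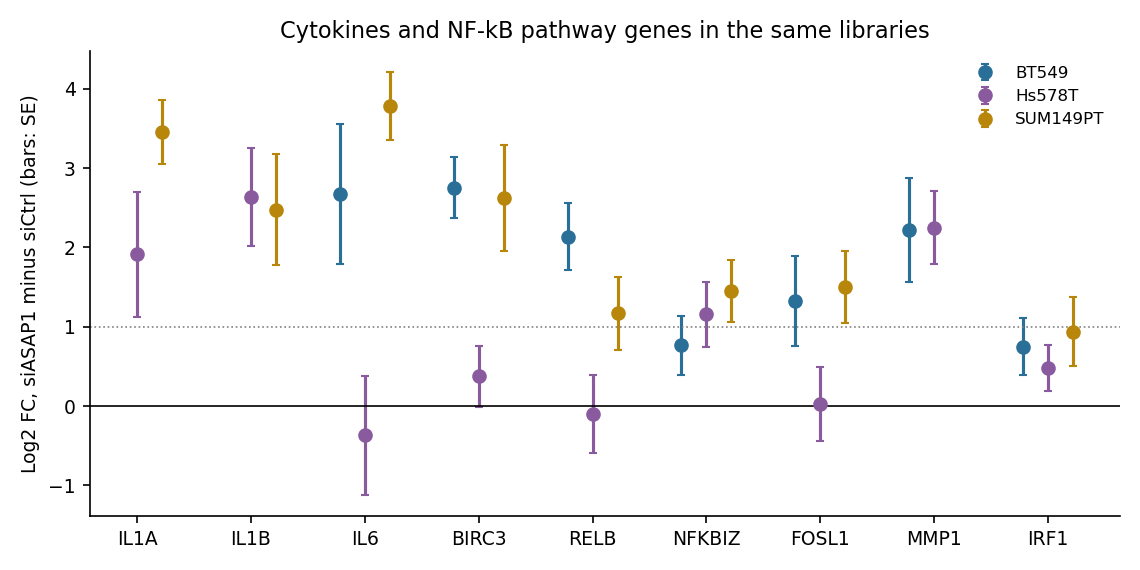
Log2 FC of siASAP1 against siCtrl (y axis, bars give the SE) for cytokine, NF-kB pathway and other named genes, by cell line, for the lines in which the probe passed the filter, with a dotted line at 1. IL6, BIRC3, RELB and FOSL1 lie above 1 in BT549 and SUM149PT and below it in Hs578T, and IL1A and IL1B lie above 1 in Hs578T and SUM149PT.

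Cytokines that induce chemokines or are induced with them were few. In SUM149PT 3 of the 5 tested were upregulated, in Hs578T 2 of 4 and in BT549 1 of 1, and none was downregulated. The shares of all tested probes upregulated in that order were 5.27%, 1.34% and 3.28%, and the shares downregulated 4.29%, 1.44% and 3.69%, which are also the background of the list counts that follow. IL6 went from 31.5, 30.1 and 32.0 normalized counts to 487, 437 and 403 in SUM149PT (Log2 FC 3.78, SE 0.43, limma adjusted p = 0.067). In BT549 it went from 1.25, 20.1 and 14.0 to 60.4, 50.0 and 58.4 (2.68, SE 0.89, adjusted p = 0.55), and in Hs578T the treatments overlapped (−0.37, SE 0.75). The BT549 siCtrl replicate 1 held 1 read of IL6, and the BT549 value was smaller without that library. IL1A, a cytokine that engages the interleukin-1 receptor, went from 84.4, 56.5 and 68.7 to 726, 713 and 871 in SUM149PT (3.46, SE 0.41, adjusted p = 0.067) and from 26.2, 206 and 16.7 to 145, 164 and 220 in Hs578T (1.91, SE 0.79, adjusted p = 0.92), where siCtrl replicate 2 was again the high control. The Hs578T value of IL1A was larger without that library. IL1B went from 6.75, 11.4 and 6.90 to 46.5, 39.3 and 94.9 in Hs578T (2.64, SE 0.62, adjusted p = 0.71) and rose by 2.48 (SE 0.69, adjusted p = 0.36) in SUM149PT. Without the library labelled SUM149PT siCtrl replicate 2 the SUM149PT values of IL6, IL1A and IL1B were 3.76, 3.31 and 1.97, and the count was again 3. In BT549 neither interleukin-1 gene had a read in siCtrl.

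Of the NF-kB factors, inhibitors and kinases, 5 of 19 probes were upregulated in BT549 (BIRC3, RELB, NFKB2, NFKBIE and MAP3K14), 3 of 23 in SUM149PT (BIRC3, RELB and NFKBIZ) and 1 of 16 in Hs578T (NFKBIZ), and none was called downregulated. The median Log2 FC of the probes tested in that order was 0.77, 0.91 and 0.29, beside medians over all tested probes of −0.0015, 0.087 and 0.010. Without the library labelled SUM149PT siCtrl replicate 2 the SUM149PT count was 8 upregulated (IRAK4_3407, RELA_5793, REL, BIRC3, BCL3, RELB, NFKBIE and NFKBIZ) and 1 downregulated (NFKBIB), beside the background of 14.4% and 8.94%. The second probes of IRAK4 and RELA were not called there (RELA_16605 0.72), and the median Log2 FC of the 23 probes was 1.20. An effect of the siCtrl pool on the kinase genes of this list, such as MAP3K14 and IRAK4, was not tested. BIRC3, an inhibitor of apoptosis protein and known NF-kB target, went from 327, 304 and 319 to 3474, 1706 and 1660 in BT549 (2.75, SE 0.39, limma adjusted p = 0.054). In SUM149PT it went from 40.0, 136 and 79.9 to 527, 226 and 895 (2.63, SE 0.67, adjusted p = 0.33), and the library labelled siCtrl replicate 2 was its highest control, without which the Log2 FC was 3.04. RELB, a factor of the alternative NF-kB pathway, rose in BT549 and SUM149PT (2.13, SE 0.42, and 1.17, SE 0.46) and had a Log2 FC of −0.10 (SE 0.49) in Hs578T. Without that library RELB had 1.20 and NFKBIZ 1.39 in SUM149PT. NFKBIZ, an atypical IkB protein, rose in Hs578T and SUM149PT (1.16, SE 0.41, and 1.45, SE 0.39) and had 0.77 (SE 0.37) in BT549. Over the 18 libraries BIRC3, NFKBIE and NFKBIZ were called, also without the library labelled SUM149PT siCtrl replicate 2 (1.99, 2.70 and 1.08).

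The remaining lists were counted in the same way. Of the AP-1 and C/EBP factors, 3 of 9 probes were upregulated in BT549 (FOSL1, JUN and CEBPB), 1 of 6 in SUM149PT (FOSL1) and 0 of 6 in Hs578T. FOSL1, an AP-1 subunit, had a Log2 FC of 1.502 (SE 0.456) in SUM149PT, 1.33 (SE 0.57) in BT549 and 0.03 (SE 0.47) in Hs578T. Without the library labelled SUM149PT siCtrl replicate 2 it had 1.80, and of the JUNB probes JUNB_3476 (1.14) was then called and JUNB_11226 (0.46) was not. Interferon response genes gave 1 of 7 in BT549 (IFIT3), 1 of 7 in SUM149PT (STAT2) and 0 of 8 in Hs578T, and CXCL10, the interferon-induced member, stayed under the filter in each line. Without that library STAT2 (0.71) was not called in SUM149PT, DDX58 was called upregulated and ISG15 downregulated. Over the 18 libraries, where none of these genes passed the adjusted threshold, the transcription factor gene IRF1 had a Log2 FC of 0.72, the RNA sensor gene DDX58 1.48 and IFIT1 −0.53. Regulators of the decay of mRNAs with AU-rich elements gave, in SUM149PT, ZFP36L1 upregulated and HNRNPD_18921 downregulated among 7, with 0 of 6 in BT549 and 0 of 7 in Hs578T. In that list HNRNPD_18921, the phosphatase gene DUSP1 and the endonuclease gene ZC3H12A had −0.87, 0.93 and 1.10 over the 18 libraries, also without passing. The second HNRNPD probe, HNRNPD_27323, had −0.23 there and −0.64 in SUM149PT and was not called. Proteases that shed or trim chemokines gave MMP1 and MMP14 upregulated and ADAM10 downregulated among 7 in BT549, MMP1 upregulated and ANPEP downregulated among 6 in Hs578T, and 0 of 6 in SUM149PT, where MMP2_4213 and ADAM17 were called upregulated and ANPEP downregulated without the same library, while MMP2_27519 had −0.78 and was not called. The collagenase gene MMP1 had Log2 FC of 2.22 (SE 0.65) in BT549 and 2.25 (SE 0.46) in Hs578T. It did not pass over the 18 libraries (1.54, limma adjusted p = 0.19). ANPEP was the 1 listed protease called there (−0.89, limma adjusted p = 0.034), where 1.06% of probes were downregulated. Without the library labelled SUM149PT siCtrl replicate 2 ANPEP was called again (−0.98, limma adjusted p = 0.016), where 0.952% were. By line it had −0.73 in BT549, −1.11 in Hs578T and −0.82 in SUM149PT.

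Markers of cell identity were read beside these values. EPCAM, an epithelial adhesion protein, held 18650 to 36679 normalized counts in SUM149PT, at most 2.52 in BT549 and 10.6 to 77.8 in Hs578T, and CDH1 (E-cadherin) was at 0 in every BT549 and Hs578T library and at 87.9 to 263 in SUM149PT. Vimentin (VIM_18185) held 27346 to 87612 in BT549, 94439 to 218740 in Hs578T and 791 to 2965 in SUM149PT. Of 6 epithelial and basal probes tested in SUM149PT, CDH1 (Log2 FC 1.24) and KRT17 (1.54) were upregulated, and KRT5 (1.91), KRT18 (−0.19), EPCAM (−0.48) and KRT8 (−0.51) were not called. Of 6 mesenchymal probes there, 3 for FN1 (1.45, 2.35 and 1.47) were upregulated, VIM_18185 (−1.48) was downregulated, and CDH2 (0.08) and COL1A1 (−0.08) were not called. In BT549 1 of 9 mesenchymal probes was called, SPARC_6699, which fell (−2.72), while SPARC_24939 had −0.84, CDH2 0.93, VIM_18185 0.85 and the FN1 probes 0.49 to 0.81. In Hs578T none of 9 was called, and EPCAM was upregulated (1.42) among 3 epithelial probes. Over the 18 libraries FN1_27231 was called (1.04, limma adjusted p = 0.048), and FN1_2459 and FN1_13666 were not. Without the library labelled SUM149PT siCtrl replicate 2 FN1_27231 was not called over the others (0.92, limma adjusted p = 0.075). The part of these markers in the chemokine result was not tested. In SUM149PT without the library labelled siCtrl replicate 2, CDH1 (1.35), KRT17 (1.08), 2 of the FN1 probes and VIM_18185 (−1.67) were again called, KRT18 (−1.16) was called downregulated, and FN1_2459 (1.21), KRT5 (0.14) and EPCAM (−0.73) were not called. Of 7 leukocyte markers only CD68, a lysosomal protein that other cells also make, passed the filter, and its Log2 FC was 2.12 in BT549 and 1.41 in Hs578T, both called. In SUM149PT it was 0.31, and −0.08 without the library labelled SUM149PT siCtrl replicate 2. CD68 held 12.5, 4.40 and 8.42 normalized counts in BT549 siCtrl and 19.6, 43.4 and 61.1 in siASAP1. The summed level of the 7 markers was 6.92 to 14.0 and 24.0 to 61.1 in those groups, 80.8 to 133 and 251 to 321 in Hs578T, and 18.2 to 42.9 and 22.3 to 149 in SUM149PT, most of it CD68. PTPRC, the gene of the leukocyte antigen CD45, was at 0 in every Hs578T and SUM149PT library and at most 2.67 in BT549. The other 6 (PTPRC, CD3E, MS4A1, CD14, NKG7 and LYZ) did not exceed 7.55 normalized counts in any library. Of 3 endothelial marker genes, VWF and CDH5 were at 0, and PECAM1 had a Log2 FC of 0.85 (SE 0.57) in Hs578T and −0.33 (SE 0.67) in SUM149PT, with neither called, and −0.10 in SUM149PT without that library. Of the breast subtype receptors none was called. ESR1_12234 held 24.3, 54.7 and 40.0 normalized counts in SUM149PT siCtrl and 190.5, 26.9 and 130.1 in siASAP1 (1.20, SE 0.82, and 1.46 without that library). ERBB2 had 0.93 (SE 0.81) in SUM149PT, which was 0.10 without that library, −0.37 in Hs578T and −0.13 in BT549.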

How the data were processed

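TempO-Seq libraries (18) of 3 TNBC cell lines were grouped by the labels into siASAP1 and siCtrl. The authors ligated detector oligos, assigned reads to 21111 probes (Bowtie and bcl2fastq are in the submitters' processing notes, with no versions) and deposited log2(normalized count + 1) values after scaling with size factors from DESeq2. The genome build is not given in the sources used here. Every value above 0 was a whole number of reads within a tolerance of 0.001 (100% of values), which gave the depths. No columns of other series were present.

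Log2 FC and p-values came from limma 3.58.1 (trend, R 4.3.3) on the deposited log2 values, fitted across all probes whose normalized counts averaged 10 or more over the fitted libraries, with Benjamini-Hochberg adjustment. Fold changes on a scale with a pseudocount of 1 understate those of low genes. Within a line the DEG limits of the study were used (p under 0.05 and absolute Log2 FC over 1). The fit over 18 libraries had cell line as a covariate, and that fit, the interaction and the siCtrl comparison used adjusted p under 0.05. Single members were also tested with an exact permutation test. The study calls the replicates biological, and p-values measure the spread between these 3 libraries a group, which may in part be technical. Reads without molecular identifiers are not independent molecules.

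The members and gene lists were chosen with earlier results of these data known. All member probes are named. From each list, probes called in at least 2 lines are named with values, or otherwise up to 3 with the smallest p over 18 libraries. The probe nearest in profile was ranked by Pearson's r over 18 line-centred libraries. Genes named with counts only were chosen by their call. Listed probes called over the 18 libraries are named as well. Promoter windows were read from RefSeq (GRCh38.p14) and gene positions from GENCODE (GRCh38). Alternatives were the filter, scaling, pseudocount, voom weights, replicate block, a single fit, the adjusted threshold, summed probes and leaving out each library. Refits of the gene lists without SUM149PT siCtrl replicate 2, and of ASAP1 without each library, were chosen after seeing the data. Python 3.11.15 and matplotlib 3.10.9 were used.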

Additional observations from a re-analysis of the deposited data

Results flagged for a closer look

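The response of CXCL8 and CXCL5 differed between the cell lines by an interaction of cell line and treatment before, but not after, correction over 10475 probes. For CXCL8 the limma F test over the 3 lines gave an adjusted p of 0.28 (0.00177 before adjustment), with Log2 FC of 3.91 in SUM149PT, 3.10 in BT549 and 0.68 in Hs578T, and the treatments overlapped in Hs578T alone. For CXCL5 it gave an adjusted p of 0.46 (0.00643 before adjustment), with a Log2 FC of 2.49 in BT549. CXCL5 had no read in Hs578T and 1 library with reads in SUM149PT, so it passed the filter only through BT549 and its response had to differ between lines.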

How the results depend on the processing

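The 4 upregulated members in BT549 and 4 in SUM149PT became 0 in each with an adjusted p under 0.05. In Hs578T the count of 0 became 1 with a replicate block and 1 with all 18 libraries in a single fit, both CXCL1, and ranged from 0 to 2 when each library was left out in turn. Leaving out a library gave 4 in BT549, 3 to 4 in SUM149PT, 3 over 18 libraries, 0 for the interaction and 3 to 4 for siCtrl. Upregulated probes then ran from 128 of 9444 to 896 of 9658 in BT549. They ran from 66 of 9494 to 314 of 9505 in Hs578T and from 229 of 10005 to 1435 of 9953 in SUM149PT. Over 18 libraries they ran from 35 of 10485 to 87 of 10470. The interaction passed for 1 to 26 probes, and 2065 of 10283 to 4551 of 10094 differed between lines in siCtrl. With a minimum of 50 the siCtrl count of 4 became 2. The Log2 FC of CCL2 over 18 libraries, 0.05, changed sign with a pseudocount of 0.1 (−0.26) and without Hs578T siASAP1 replicate 2 (−0.06) or 3 (−0.06) or Hs578T siCtrl replicate 3 (−0.18), and leaving out each library gave −0.18 to 0.27. It was not called in any of these. CCL20 in SUM149PT was not called with no filter (unadjusted limma value 0.052), voom weights (Log2 FC 1.97) or the block. Over 18 libraries CXCL8 missed the threshold with the block (adjusted p = 0.056) and CXCL5 passed it with voom weights (Log2 FC 1.96, adjusted p = 0.018). The other 106 recomputed counts of members stayed within 1.5 times of the count reported. They include SUM149PT counts of 3, counts over 18 libraries of 4 with voom weights and 2 with the block, and an siCtrl count of 5 with no filter, where CCL20 was newly called. With the single fit 122 of 9500 probes were upregulated in Hs578T. With voom weights 461 of 10078 were in SUM149PT and 96 of 10475 over 18 libraries. With no filter 609 of 14939 were in SUM149PT. In siCtrl 1844 of 6882 probes differed between lines with the minimum of 50 and 3107 of 16494 with no filter. The other 314 single values kept their direction and their side of the threshold. The cause of these changes was not tested.

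Replicate numbers did not pair the libraries of SUM149PT and BT549: same-numbered libraries had correlations of −0.66 to −0.33 in SUM149PT and −0.39 to 0.14 in BT549. In Hs578T all 3 were positive (0.0998, 0.41 and 0.42), with 1 of them just under the limit of 0.1 set for pairing. Hs578T libraries with different numbers had −0.40 to 0.14, so a pairing in that line remains uncertain. In SUM149PT siASAP1 replicate 2 had 0.49 and 0.52 with siCtrl replicates 1 and 3. The library labelled siCtrl replicate 2 had 0.42 and 0.43 with siASAP1 replicates 1 and 3. MAP3K7 held 2335, 718 and 2150 normalized counts in the SUM149PT siASAP1 replicates and 769, 2412 and 723 in siCtrl. Both libraries numbered 2 thus stood apart from their groups, and the cause was not tested. With the block the probes upregulated and downregulated over 18 libraries fell from 71 and 111 to 14 and 20, and the upregulated and downregulated probes were 213 and 222 in Hs578T and 195 and 156 in SUM149PT. Scaling by library totals moved the median Log2 FC of all probes to 0.12 in Hs578T and 0.30 in SUM149PT, with 70.3% and 74.0% of calls upregulated. With 3 libraries a group and single libraries that decide a call, the Hs578T values limit what can be told. Probes with a few reads give no test.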
